A study of Homo sapiens with 6 samples.

Results

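DNAJ proteins, also called J proteins or HSP40 co-chaperones, carry a J domain that binds an HSP70 chaperone and stimulates its ATPase, so that the HSP70 closes on a client protein. Class A members (DNAJA) also have a glycine and phenylalanine rich stretch and a zinc finger, class B members (DNAJB) lack the zinc finger, and class C members (DNAJC) share little beyond the J domain. The family directs HSP70 to folding, refolding after heat, protein import, endoplasmic reticulum quality control, vesicle uncoating and other tasks, and DNAJB1 is its classic heat shock gene.

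The family was taken as every probe set that lists 1 gene whose symbol starts with DNAJA, DNAJB or DNAJC. A probe set is a group of short array probes designed against 1 transcript or part of it. The rule gave 47 symbols and 116 probe sets, of 19775 symbols and 54613 probe sets in all. Of these, 43 symbols with 111 probe sets code for J proteins, and 4 symbols with 5 probe sets are noncoding neighbours (DNAJC9-AS1, DNAJB8-AS1, DNAJC3-DT and DNAJC27-AS1). A mean log2 value of at least 4 over the 6 arrays counted as expressed, which 74 probe sets of 35 genes reached.

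The cells were SK-Hep1, a human cell line established from an adenocarcinoma of the liver. One group of 3 samples was transfected with 20 nM anti-miR-21, an oligonucleotide directed against the microRNA miR-21, and the other 3 were mock samples that went through the same lipid transfection without it. Both groups were collected after 16 h, and no untransfected or control-oligonucleotide group is part of the comparison. Per the design text the RNA was total RNA, but the collection protocol cites an Argonaute immunoprecipitation, and it could not be settled from them which RNA was hybridised. The replicates are labelled biological without a statement of separate cultures, so the p-values cover only the spread among these arrays, which may be technical.

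The 6 arrays were close to each other, with correlations over expressed probe sets of 0.99625 to 0.99828 within groups and 0.99387 to 0.9973 between them. Array medians over expressed probe sets lay between 9.01 and 9.04 on the log2 scale, and the difference between 3' and 5' control probes of ACTB, a sign of RNA integrity, was 0.491 to 0.628 in mock and 0.589 to 0.606 with anti-miR-21. Mock replicate 3 was the lowest array in 26 of the 74 expressed DNAJ probe sets, and in 25.5% of all expressed probe sets. Of the 7 measured hepatocyte markers only AFP and TF passed 4, at 4.22 and 4.02, and ALB, which encodes albumin, had 2.85. The endothelial markers PECAM1, CDH5 and VWF were at 2.27 to 3.02 while ROBO4 had 8.29 and TEK had 4.66. Of the 6 mesenchymal markers VIM had 15.7 and THY1, COL1A1 and COL3A1 10.03 to 10.7, while COL1A2 and PDGFRB were at 2.51 and 2.94. Of the 4 measured leukocyte markers CD14 had 5.30, and PTPRC, CD3E and LYZ had 1.55 to 3.21. None of the expressed markers was called between groups. The summed log2 value of 8 endothelial markers, 2 of them expressed, was 29.2 to 29.4 in mock and 29.7 to 30.2 with anti-miR-21. That of 4 leukocyte markers, 1 of them expressed, was 12.7 to 13.1 and 13.2 to 13.3. Most terms of these sums thus lay below the limit for expression. Among the endothelial ones, ROBO4 had a mean of 8.05 in mock and 8.52 with anti-miR-21. The sums of hepatocyte markers (20.6 to 20.8 and 20.4 to 21.0) and mesenchymal markers (51.8 to 53.1 and 51.6 to 52.0) overlapped between groups. The part of these markers in the results was not tested.

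Sequences of miR-21 and of stretches before DNAJ genes were taken from RefSeq, build GRCh38.p14. Whether they bear on the results was not tested. The oligonucleotide is directed against the mature miR-21-5p, at chr17:59841273-59841294 on the plus strand, shown with its seed (bases 2 to 8) in capitals because the seed is what pairs with target messengers.
hsa-miR-21-5p: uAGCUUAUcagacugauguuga
DNAJB1, the member with the clearest result, lies on the minus strand of chromosome 19, and the RefSeq table gives it 3 transcript starts. The 250 bases before each start were searched for the core of a heat shock element, 2 inverted units written TTCNNGAA or GAANNTTC, which read the same on both strands. The window chr19:14518398-14518647 holds 2 such pairs, at 77 to 70 and at 47 to 40 bases before the start, and the windows at the other 2 starts hold none. It is shown with the pairs in capitals because heat shock factor binds such elements at classic heat shock genes.
DNAJB1 upstream window: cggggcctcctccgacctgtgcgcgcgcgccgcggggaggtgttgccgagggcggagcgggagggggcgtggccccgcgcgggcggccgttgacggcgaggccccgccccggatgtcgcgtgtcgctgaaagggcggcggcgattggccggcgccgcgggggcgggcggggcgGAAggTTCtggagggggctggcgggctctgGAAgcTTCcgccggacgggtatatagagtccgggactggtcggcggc
The table has windows for 39 of the 43 J protein genes, all but DNAJC1, DNAJC5B, DNAJC22 and DNAJC24, and for the 4 noncoding neighbours. Either pair was found before 7 of those 39 genes, or 17.9% (DNAJA1, DNAJA4, DNAJB1, DNAJB4, DNAJB6, DNAJB7 and DNAJC15), and before none of the noncoding ones, beside 14% of all genes and 11.6% of all 35116 windows. The pairs of the other expressed class A and B genes are shown in 30-base stretches for comparison, all on the plus strand.
DNAJA1 (chr9:33025064-33025093): aaagggctccaGAAgaTTCcacgagcgccg
DNAJA4, first pair (chr15:78264460-78264489): ggaacctccgcGAAggTTCtaggcctttgt
DNAJA4, second pair (chr15:78264499-78264528): gtctccttgcgGAAgcTTCcgccggcgccg
DNAJB4 (chr1:78004830-78004859): agcatttgctgTTCtaGAAagtacagagac
DNAJB6 (chr7:157336865-157336894): agagccgaGAAccTTCgcGAAggtggggcg
In DNAJB6 a GAANNTTC and a TTCNNGAA overlap, which makes 3 units in a row. Such a triple was found in 0.441% of all windows and before no other member gene that has a window. A match is a description of these letters and not of binding.

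The comparison asked which DNAJ transcripts differed between cells given anti-miR-21 and mock cells. DNAJB1, which drives HSP70 refolding of stress-damaged proteins, gave opposite answers from its 2 probe sets: 1 fell and 1 rose. DNAJC9, a J protein that also acts as a histone chaperone, rose on 1 probe set and did not pass the test on the other. No other family member passed. By limma, with Benjamini-Hochberg adjustment over 22408 expressed probe sets and a threshold of 0.05, 2 of 74 expressed DNAJ probe sets were called higher against 1.10% of all, and 1 was called lower against 1.07% of all. Such shares over 74 probe sets rest on 3 calls, and nothing is read from them about the family.

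Log2 ratios below are anti-miR-21 minus mock. The brighter DNAJB1 probe set, 200666_s_at, read 13.71, 13.79 and 13.75 (log2) in mock replicates 1 to 3 and 13.33, 13.26 and 13.30 with anti-miR-21. All mock arrays lay above all anti-miR-21 arrays. The signal fell by 0.45 ± 0.0501 (log2, SE), a 1.37-fold decrease with a limma adjusted p of 0.0117. The suffix _s marks a probe set whose probes can match several transcripts of a gene or of related genes.

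The other DNAJB1 probe set, 200664_s_at, read 12.71, 12.82 and 12.88 in mock and 13.20, 13.09 and 13.14 with anti-miR-21. Here all mock arrays lay below all anti-miR-21 arrays. The signal rose by 0.34 ± 0.0617 (log2, SE), or 1.26-fold, with a limma adjusted p of 0.0487. That call was lost when any 1 array was left out (limma adjusted p 0.0738 to 0.167) and without the filter on dim probe sets (0.0699). It was also lost with each array centred on its median over all probe sets (0.173). Those medians were 3.02 to 3.16, below the limit for expression. The fall of 200666_s_at lost its call when mock replicate 2 (0.0702), the second anti-miR-21 array (0.0619) or the third one (0.0635) was left out, with log2 fold changes from -0.47 to -0.43 in all 6 such fits.

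The distance between the DNAJB1 probe sets was tested on its own. The log2 difference of 200666_s_at minus 200664_s_at was 0.994, 0.972 and 0.876 in mock and 0.137, 0.168 and 0.167 with anti-miR-21. A difference between probe sets has no meaning as a level, but its change compares the same probes across arrays. Its mean went from 0.947 ± 0.063 to 0.157 ± 0.018 (SD, n = 3), a change of -0.79 ± 0.0615 (log2, SE). In a limma test of each expressed probe set against the mean of the gene's others, combined per gene by Simes' method and adjusted over 5285 genes with 2 or more expressed probe sets, DNAJB1 had an adjusted p of 0.00249. DNAJB1 kept that call with each array left out in turn (adjusted p 0.0110 to 0.0226). The test is 2-sided. Genes that pass are said to have moved apart, also where the difference shrank, as it did in DNAJB1 and DNAJC9. With both probe sets averaged the gene's log2 fold change was -0.06 (limma adjusted p = 0.581), so the average shows neither movement.

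**Figure D1:**
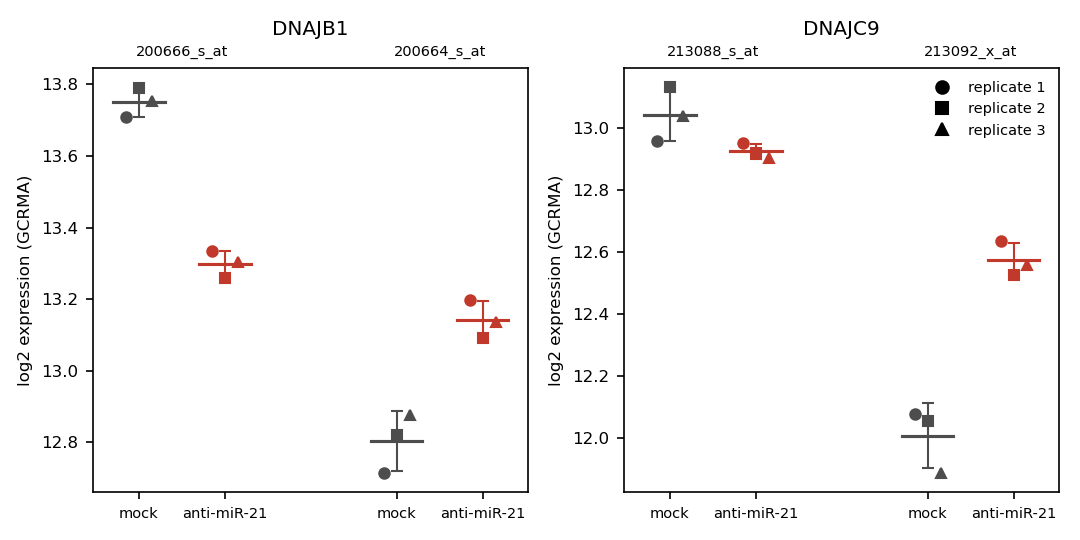
Log2 expression (GCRMA) of the 2 expressed probe sets of DNAJB1 (left) and of DNAJC9 (right) in mock (grey) and anti-miR-21 (red) arrays. Points are single arrays with the replicate number as the symbol, horizontal lines are means and bars are SDs (n = 3). The DNAJB1 probe sets moved towards each other, 200666_s_at from a mean of 13.75 to 13.30 and 200664_s_at from 12.80 to 13.14, and the arrays of the groups do not overlap in any of the 4 probe sets.

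DNAJC9 showed the next largest movement within a gene. Its probe set 213092_x_at read 12.08, 12.06 and 11.89 in mock and 12.64, 12.53 and 12.56 with anti-miR-21, with every anti-miR-21 array above every mock array. It rose by 0.57 ± 0.0686 (log2, SE), or 1.48-fold, with a limma adjusted p of 0.0149. The suffix _x marks probes that can match unrelated transcripts. The brighter probe set 213088_s_at read 12.96, 13.13 and 13.04 in mock and 12.95, 12.92 and 12.90 with anti-miR-21, a log2 ratio of -0.12 that did not pass (limma adjusted p = 0.356).

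The log2 difference of 213088_s_at minus 213092_x_at was 0.882, 1.08 and 1.15 in mock and 0.315, 0.394 and 0.348 with anti-miR-21. All 3 mock values lay above all 3 anti-miR-21 values. The change was -0.69 ± 0.0838 (log2, SE), and DNAJC9 passed the test of probe sets moving apart with an adjusted p of 0.0122. That call was lost when mock replicate 2, the second anti-miR-21 array or the third one was left out (0.0710, 0.0556 and 0.0741), and so was the call of 213092_x_at alone (0.0674, 0.0617 and 0.0694). Averaged over both probe sets, DNAJC9 had a log2 ratio of 0.22 (limma adjusted p = 0.0710). The remaining DNAJC9 probe set, 229701_at, read 2.79 to 3.10 on all arrays and counted as not expressed.

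The sources used here do not place these probe sets along their transcripts, so which transcript forms each one reads was not tested. The RefSeq table lists 2 pseudogenes named after DNAJB1 and 1 named after DNAJC9, DNAJB1 overlaps TECR there, and DNAJC9-AS1 neighbours DNAJC9 on the opposite strand. The DNAJC9-AS1 probe set read 2.11 to 2.18 on all arrays. Signal from such copies and neighbours was not tested.

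DNAJB1 and DNAJC9 were 2 of 23 member genes with 2 or more expressed probe sets, and 1.42% of all 5285 such genes moved apart. Opposite calls, 1 probe set higher and 1 lower, were made in 0.189% of those genes. These were 10 genes, CAMK2D, DENND5B, DNAJB1, HAPSTR1, MRS2, PAG1, PDZD8, RPP30, ZNF655 and ZNRF1, counted after the values were seen. None of the remaining 21 member genes passed. For DNAJC16 the change in the difference of the 2 brightest probe sets was 0.39 (95% CI -0.165 to 0.947, limma adjusted p = 0.639).

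**Figure D2:**
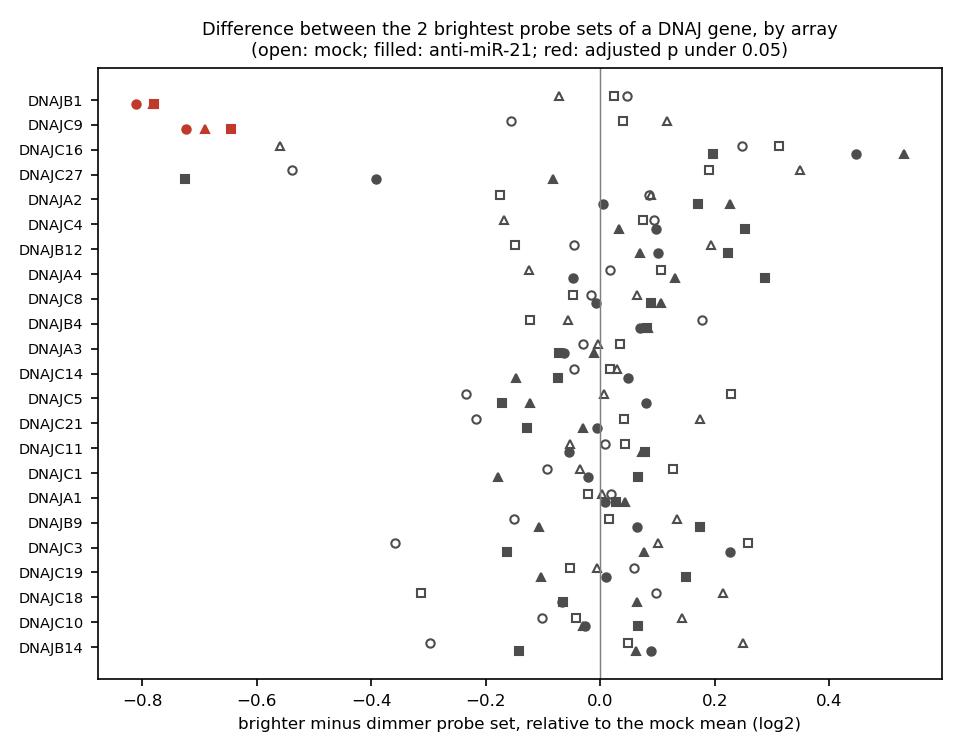
Log2 signal of the brightest minus the next brightest expressed probe set of each of 23 DNAJ genes, by array, shifted so that the mean of the mock arrays is 0. Open symbols are mock, filled symbols anti-miR-21 (circle, square and triangle for replicates 1 to 3), genes are in order of p, and red marks limma adjusted p under 0.05. DNAJB1 and DNAJC9 are the 2 genes in red, with every anti-miR-21 array below every mock array.

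The class A co-chaperones of the cytosol work with HSP70 in general folding. DNAJA1, DNAJA2 and DNAJA4 had 8 expressed probe sets, and none passed the test. DNAJA1, at 13.84, 13.86 and 13.86 in mock and 13.85, 13.69 and 13.74 with anti-miR-21, had a log2 ratio of -0.09 ± 0.0569 SE (limma adjusted p = 0.464). The groups overlapped in this gene and in the other 7 class A probe sets. The widest estimate was that of the dim DNAJA4 probe set 1554333_at, 0.49 with a 95% CI of -0.38 to 1.37, where mock arrays ranged from 4.04 to 5.29 and anti-miR-21 arrays from 4.57 to 5.61.

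Beside DNAJB1, class B was represented by 5 expressed probe sets of DNAJB2, DNAJB4, DNAJB5 and DNAJB6, none of which passed. DNAJB6, which suppresses aggregation of polyglutamine proteins, read 13.01, 12.98 and 12.89 in mock and 13.15, 13.21 and 13.15 with anti-miR-21. The groups did not overlap, and the log2 fold change was 0.21 ± 0.0532 SE (limma adjusted p = 0.105). Brighter probe sets that list DNAJB6 together with TMEM135, and so fall outside the family rule, had smaller log2 ratios of 0.07 and 0.08. DNAJB4, a close relative of DNAJB1, read 13.42, 13.50 and 13.34 in mock and 13.22, 13.21 and 13.23 with anti-miR-21 on 203811_s_at, again without overlap and with a log2 ratio of -0.20 ± 0.0566 SE (limma adjusted p = 0.139). Its other probe set, 203810_at, overlapped between groups and had -0.12 (limma adjusted p = 0.498). DNAJB5 was among the dimmest expressed members, at a mean of 5.41, with a log2 ratio of -0.15.

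**Figure D3:**
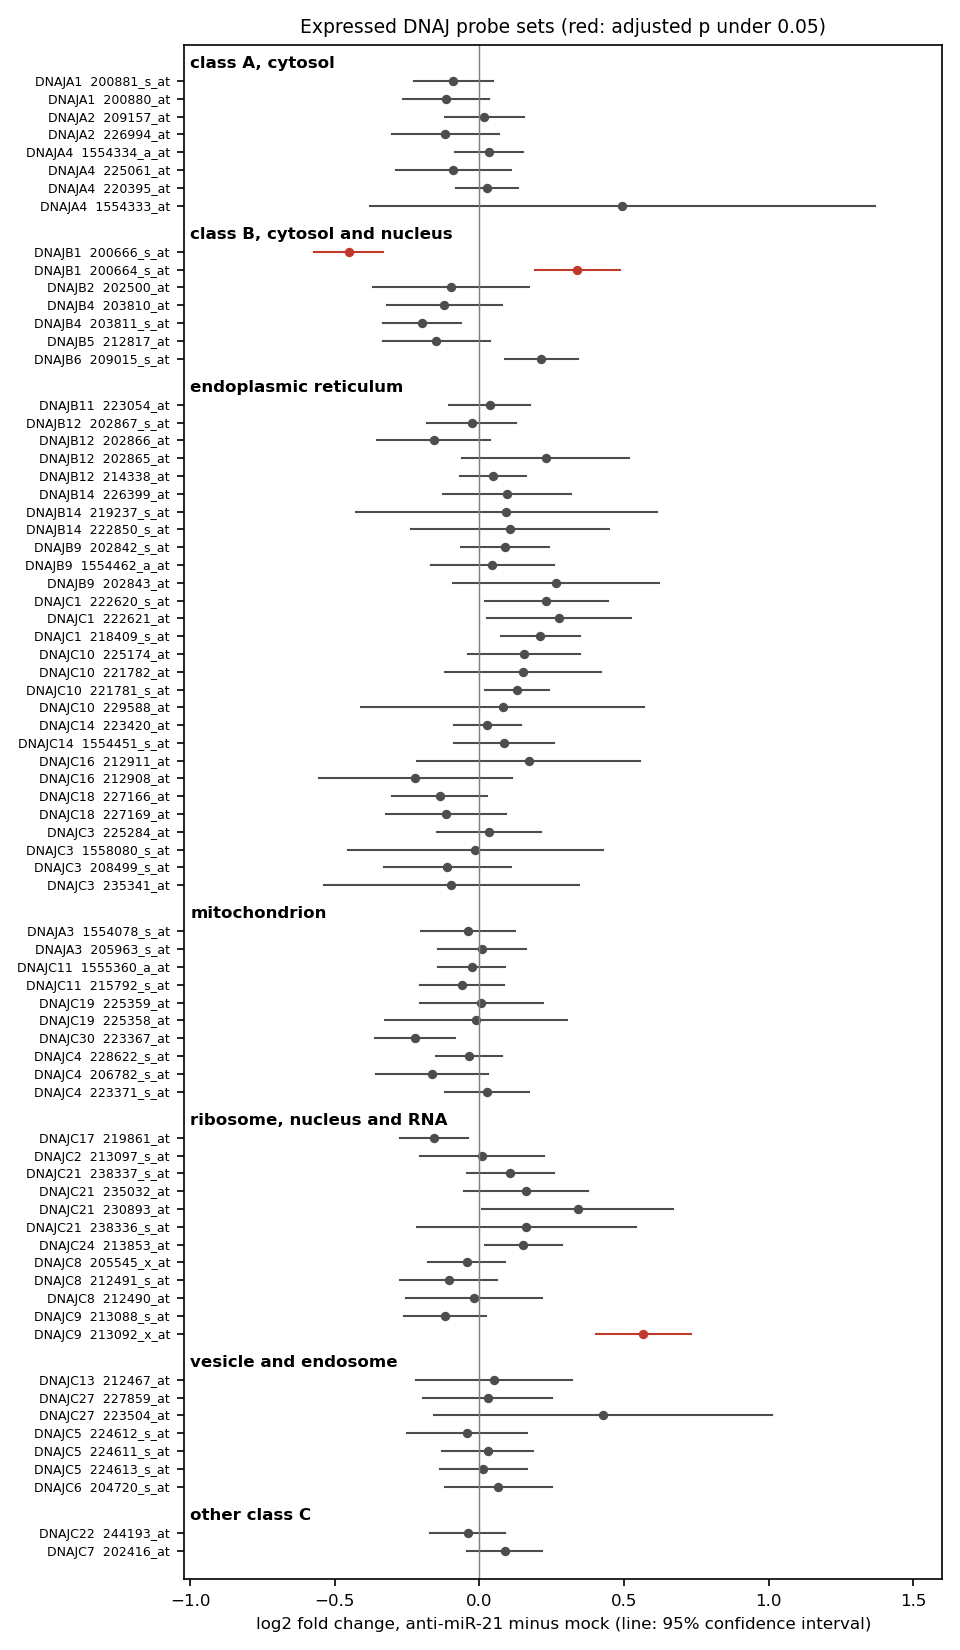
Log2 fold change (anti-miR-21 minus mock) of all 74 expressed DNAJ probe sets, grouped by where the proteins act, with 95% confidence intervals from limma (lines). Red marks the 3 probe sets with limma adjusted p under 0.05, 2 of DNAJB1 on either side of 0 and 1 of DNAJC9 at 0.57, while the other 71 are grey.

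Several J proteins of the endoplasmic reticulum, though not all, pair with the HSP70 BiP (HSPA5) at the translocon, in folding and in the retrotranslocation of misfolded proteins. All 10 genes of this compartment were expressed, with 28 of 31 probe sets, and none passed the test. Their log2 fold changes ran from -0.22 to 0.28 with a median of 0.08, and 20 of 28 were positive, beside a median of -0.0027 and 49% positive over all expressed probe sets. Centring each array on its median over all probe sets shifts all log2 fold changes by -0.04. The median over all expressed probe sets then becomes -0.0407.

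DNAJC1, a membrane protein that binds ribosomes, had 3 positive probe sets. The probe set 218409_s_at read 8.77, 8.89 and 8.81 in mock and 9.10, 8.97 and 9.03 with anti-miR-21, without overlap (log2 fold change 0.21 ± 0.0576 SE, limma adjusted p = 0.128). The other 2, 222621_at and 222620_s_at, had 0.28 and 0.23 (limma adjusted p = 0.240 and 0.247). DNAJC10, a disulfide reductase of this compartment, had 4 expressed probe sets with log2 fold changes of 0.08 to 0.16. Among them 221781_s_at read 10.11, 10.06 and 10.09 in mock and 10.21, 10.25 and 10.19 with anti-miR-21, without overlap (0.13, limma adjusted p = 0.213).

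DNAJB11, a BiP cofactor for unfolded clients, had a log2 ratio of 0.04 (95% CI -0.105 to 0.176). DNAJB9, which is induced when unfolded proteins accumulate and represses the stress sensor IRE1, had 0.04 to 0.27 over 3 probe sets. DNAJC3, an inhibitor of eIF2α kinases and a BiP cofactor, had -0.11 to 0.03 over 4, and the membrane proteins DNAJB12 and DNAJB14 had -0.16 to 0.23 and 0.09 to 0.11. The same windows were searched on both strands for the endoplasmic reticulum stress element. It was found before 0 of the 39 J protein genes with a window (DNAJC1 has none) and in 0.074% of all windows. With matches this rare anywhere, 0 among 39 genes says nothing about these genes. Only the 250 bases before each start were searched, so whether DNAJB9, DNAJB11 or DNAJC3 carry the element was not tested.

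The mitochondrial members act in the import motor, in cristae and in folding of imported proteins, and include DNAJA3, which is of class A by structure. Of 18 probe sets 10 were expressed, and none passed. DNAJC30, a small J protein linked to respiratory complex I repair, read 10.02, 10.12 and 10.13 in mock and 9.91, 9.80 and 9.90 with anti-miR-21. The groups did not overlap, with a log2 ratio of -0.22 ± 0.0578 SE (limma adjusted p = 0.116). DNAJC19, a subunit of the import motor, had -0.01 and 0.01, DNAJA3 had -0.04 and 0.01, and DNAJC11, a partner of the cristae complex MICOS, had -0.06 and -0.03.

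Members tied to the ribosome, the nucleus and RNA had 12 expressed probe sets, of which only that of DNAJC9 passed. DNAJC17, found with splicing factors, read 8.89, 8.95 and 8.92 in mock and 8.80, 8.78 and 8.71 with anti-miR-21 (log2 fold change -0.16 ± 0.0499 SE, limma adjusted p = 0.174). DNAJC24, needed for the diphthamide modification of elongation factor 2, read 9.84, 9.99 and 9.89 against 10.09, 10.03 and 10.05 (0.15, limma adjusted p = 0.229). Neither gene's groups overlapped. DNAJC21, a factor of large ribosomal subunit maturation, had log2 fold changes of 0.11 to 0.34 over 4 expressed probe sets. The highest was 230893_at, at 9.17, 8.79 and 8.58 in mock and 9.19, 9.17 and 9.20 with anti-miR-21, which did not pass (limma adjusted p = 0.269) except without mock replicate 1 (0.0435). The ribosome-bound DNAJC2 had 0.01. The splicing-associated DNAJC8 had -0.11 to -0.02 over 3.

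Vesicle and endosome members had 7 expressed probe sets and none passed. DNAJC5, the cysteine string protein of secretory vesicles, had -0.04, 0.03 and 0.01, DNAJC6, an auxilin that strips clathrin coats, had 0.07, and DNAJC13, an endosomal sorting factor, had 0.05. DNAJC27, a Rab-like GTPase with a J domain, was dim. Its representative 227859_at had a mean of 6.23 and a log2 ratio of 0.03, whose sign turned to -0.01 when arrays were centred on their medians and to -0.03 and -0.05 without the third mock array or the third anti-miR-21 array. Its other expressed probe set, 223504_at, was the member just inside the limit for expression, at 4.17. It passed only through its anti-miR-21 arrays (mean 4.38, against 3.95 in mock), so its log2 ratio of 0.43 is a description. The remaining class C genes DNAJC7 and DNAJC22 had 0.09 and -0.04.

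Without overlap between the groups were 13 of the 74 probe sets, or 17.6%, which lies below the 24.0% of all expressed probe sets. An unadjusted p under 0.05 was likewise found for 13, against 17.8% of all. The median log2 ratio of the 74 was 0.03 against -0.0027 over all, 43 were positive (58.1%, against 49% of all), and the median size was 0.0977 against 0.0849. The median of the 74 became -0.01 when arrays were centred, which took that over all expressed probe sets to -0.0407. Without mock replicate 3 the median of the 74 was -0.00251. Of the 74, 8 (10.8%) differed by at least 1.2-fold, against 11.1% of all. The 43 and the 8 include DNAJC27 223504_at, which reached the limit for expression only through its anti-miR-21 arrays.

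The other 42 probe sets were not expressed by the limit of 4. They include all 5 noncoding probe sets, at 1.67 to 2.76, and every probe set of 8 J protein genes (DNAJB7, DNAJB8, DNAJB13, DNAJC5B, DNAJC5G, DNAJC12, DNAJC15 and DNAJC28). DNAJB8 and DNAJB13 are known mainly from testis. The brightest probe set of each of these 8 had a mean of 1.99 to 2.92. Group means of the 42 probe sets differed by at most 0.198. Just outside the limit were DNAJC4 206781_at at 3.97 and DNAJC21 234094_x_at at 3.90, and just inside, beside DNAJC27 223504_at, DNAJC21 238336_s_at at 4.19.

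The partners of the family were followed with 1 probe set per gene, the brightest expressed. In this form 0.913% of 10848 genes were called higher and 1.22% lower, and of the 35 DNAJ genes only DNAJB1 was called, lower. Of 65 expressed partner genes in 7 lists, none passed (limma adjusted p under 0.05). The lists were 3 J proteins with other symbols, 11 HSP70 and HSP110 genes, 10 nucleotide exchange factors, 13 HSP90 genes, co-chaperones and HSP70 regulators, 7 heat shock factors and other heat shock genes, 15 endoplasmic reticulum partners and 6 import motor subunits. Their median log2 fold changes lay between -0.08 and 0.01. The 11 HSP70 and HSP110 genes, of 16 listed, do not include HSPA8, HSPA1A, HSPA1B or HSPA6. Nothing is said here about those genes.

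Among HSP70 genes, the ATPases that J proteins activate, the smallest p belonged to HSPA14, a ribosome-associated HSP70, with a log2 ratio of -0.40 ± 0.0859 SE (limma adjusted p = 0.0758), HSPA2 with -0.42 ± 0.0916 SE (0.0819) and the HSP110 relative HSPA4L with -0.41 ± 0.104 SE (0.113). Dimmer expressed probe sets, which do not represent their gene, had 0.01 and -0.13 (HSPA14) and 0.16 (HSPA4L), and none of them passed. HSPA14 and HSPA2 passed, of the alternatives run, only when anti-miR-21 replicate 1 was left out (0.0336 and 0.0383), as did HERPUD1, a stress-induced membrane protein of the endoplasmic reticulum, which had 0.23 with all arrays (0.199, and 0.0470 without that array). The nucleotide exchange factors BAG1 and BAG3 had -0.25 and -0.23 (limma adjusted p = 0.104 and 0.226), and GRPEL2 had 0.18. HSF1, the heat shock factor, had 0.05, the small heat shock protein gene HSPB1 had -0.06 and the collagen chaperone gene SERPINH1 had -0.12.

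The other named partners had log2 fold changes of -0.12 (GAK), 0.09 (SEC63) and -0.08 (HSCB) among further J proteins, and -0.12 (TRAP1), 0.09 (SUGT1) and 0.09 (HSP90AA1) around HSP90. PDIA3 and CALR, which fold glycoproteins, had 0.34 and -0.13, and TIMM17B, PAM16 and TIMM50 of the import machinery had -0.09, 0.14 and -0.08. The dimmer expressed probe sets of PDIA3 had -0.18 and -0.05. One partner probe set that did not represent its gene was called: HSPA5 230031_at, at 8.77, 8.77 and 8.91 in mock and 8.42, 8.36 and 8.16 with anti-miR-21, fell by 0.50 (log2, limma adjusted p = 0.0363). The brightest probe set of HSPA5, at a mean of 14.3, had a log2 ratio of 0.01, and HSPA5 did not pass the test of probe sets moving apart (adjusted p = 0.138). Among 41 partner genes with 2 or more expressed probe sets 2 passed that test, against 1.42% of all such genes. They were SUGT1 (0.0379) and HSPA4L (0.0461), both named after their values were seen. No SUGT1 probe set was called: 228045_at had -0.47 (limma adjusted p = 0.0985) and the other expressed ones -0.02 to 0.24.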

How the data were processed

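The authors deposited log2 expression values for 6 Affymetrix arrays, computed by GCRMA (per the submitters' processing notes), whose version is not given in the sources used here. GCRMA corrects background by probe sequence, normalizes between arrays and pulls dim probe sets to a common low level, so small folds of dim probe sets are uncertain. The log2 values were used as deposited, without the 62 control probe sets. Of the rest, 41091 listed 1 gene in the platform annotation (41037 matched RefSeq by identifier), 1801 several and 11721 none.

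Groups were compared in R 4.3.3 by limma 3.58.1 (lmFit, then eBayes, two-sided, no covariate) over the 22408 probe sets with a mean of at least 4. Error terms are standard errors of the fit or SDs over 3 arrays, and the number of arrays limits the precision. Both fits were checked on simulated data with independent noise and planted changes larger than those called in DNAJ genes. That check does not show how well changes of the size reported here are found. The named probe sets are those called, the 12 smallest p, the probe sets of genes that moved apart, the 3 brightest and 3 dimmest genes by representative, and per partner list the 3 smallest p. Members described by role are summarised beyond this. The members and lists were chosen with earlier results of these data known. Alternatives covered the filter, between-array normalization, variance moderation, a replicate block, averaging and each array left out. The labels do not state that replicate numbers pair samples across groups, and the main fit did not pair them.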

Additional observations from a re-analysis of the deposited data

How the results depend on the processing

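The count of all called probe sets, 486, fell to 91 with the replicate block and ranged from 96 to 572 with 1 array left out. DNAJ probe sets called higher, 2 in the full comparison, were 1 without a filter, 1 with median centring, 0 with the replicate block, 0 with a gene's probe sets averaged, and 0 to 2 with 1 array left out. The 2 without mock replicate 1 were not the same: DNAJC9 213092_x_at and DNAJC21 230893_at (adjusted p = 0.0435), which replaced DNAJB1 200664_s_at. The 1 called lower became 0 with the replicate block, 0 when averaged, and 0 to 1 with 1 array left out. The 2 genes that moved apart became 0 with the replicate block (DNAJB1 adjusted p = 0.0564, DNAJC9 0.0862) and 1 to 2 with 1 array left out. They stayed 2 by the direct difference of the 2 brightest probe sets. Deviations from the group mean in same-numbered samples had correlations of -0.361, -0.266 and -0.00187, none of them positive. With 3 arrays per group these values cannot show whether a shared number marks a batch, and the labels do not say. DNAJC27 227859_at turned to -0.00977 with median centring and ran from -0.0504 to 0.0958 with 1 array left out, and DNAJC9 213088_s_at became 0.224 when averaged with its partner. Over 39 named probe sets and 12 settings, 443 values kept direction and side of the threshold, 18 lost a call, 3 gained one and 4 changed sign. Causes were not tested.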

Other observations

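Probe sets that list a DNAJ gene together with another gene were left out of the family. The 2 that list TMEM135 and DNAJB6 were bright, and neither passed: 208810_at had a log2 ratio of 0.07 (limma adjusted p = 0.832) and 208811_s_at 0.08 (0.401). The latter read 13.52, 13.53 and 13.54 in mock and 13.60, 13.63 and 13.61 with anti-miR-21. The 1 that lists DNAJC25 and the readthrough DNAJC25-GNG10, 226859_at, read 8.92, 8.79 and 8.75 in mock and 9.01, 8.92 and 8.96 with anti-miR-21, a log2 ratio of 0.14 (limma adjusted p = 0.290).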
